A study of Mus musculus with 12 samples.

Results

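The interferon response was followed here through 41 mouse genes that interferons are known to induce, taken as a named set and matched to the deposited transcript table by Ensembl identifier. Of these, 39 were present among the 13465 genes that the table yields. Mx1 and Mx2 were not analysed here. Oas2 lay under the level filter, so 38 members were among the 12469 genes tested. Values are FPKM (fragments per kilobase of transcript, scaled to the mapped fragments of the library), summed over the transcripts of a gene.

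The kidneys came from mice in 4 groups of 3 libraries each. WT sham and WT IRI mice were wild type, and CKO sham and CKO IRI mice were labelled as lacking Gpx3 in the renal tubular epithelium. IRI denotes ischemia-reperfusion injury, made by 30 min of bilateral renal ischemia followed by 48 h of reperfusion, and the sham groups had surgery without it. How the knockout was made (allele and Cre driver) and the strain, age and sex of the mice are not given in the sources used here. The labels do not say whether libraries of a group came from different mice, and a p-value here reflects only how far libraries differ, which may be technical.

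Interferons are secreted proteins that alert cells to viruses and to nucleic acids released by damaged cells. Type I and type III interferons activate a complex containing STAT2 and IRF9 that binds the interferon-stimulated response element (ISRE), whereas interferon gamma acts through the gamma-activated site (GAS). The genes so induced encode sensors, antiviral effectors, ubiquitin-like modifiers, immunity-related GTPases and the machinery of class I antigen presentation. In the kidney, tubular, endothelial and resident immune cells can all respond to interferon.

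Gpx3 encodes a glutathione peroxidase that is secreted into plasma, and its level tests the labels. WT sham libraries 1, 2 and 3 held 5664, 4476 and 5371 FPKM and CKO sham libraries 1, 2 and 3 held 2501, 3037 and 3299 FPKM, with a difference of -0.81 (log2, SE 0.15) and a limma adjusted p of 0.232. An exact two-sided permutation test gave p = 0.1 for sham, the smallest that 3 against 3 libraries allow. After injury the ranges overlapped, with 2788, 3568 and 1075 FPKM in the libraries labelled WT IRI 13, 24 and 49 and 3723, 3025 and 2779 FPKM in those labelled CKO IRI 7, 15 and 29 (exact two-sided permutation p = 0.5). Gpx3 therefore did not separate the labels after injury, and every direction between the injured groups below is between libraries as labelled. Library sums lay between 391002 and 422328 FPKM, and read depth is unknown. Proximal tubule markers summed to 4560 to 4780 FPKM in WT sham, while the labels' extraction text speaks of a joint. Of 5 synovium and cartilage markers, Comp and Sox9 were analysed, and together they summed to at most 8.14 FPKM.

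RefSeq promoter windows (GRCm38.p6, 250 bases before to 50 after the start) matched 30 of the 41 members. Both strands were searched for GAAA repeated after any 2 bases, the core of an ISRE, and for TTCNNNGAA, the core of a GAS. The paired GAAA motif was found in the promoters of 19 of the 30 genes (63.3%), against 3.99% of the 27025 genes with a window in the whole table. TTCNNNGAA was found in 10 members (33.3%), against 9.55% of all genes. Both motifs stood together in 7 members (Oas1a, Bst2, Ifitm3, Gbp7, Igtp, Irgm2 and Tgtp2), against 0.54% of all genes. The matches of different motifs shared bases in Bst2 and Ifitm3. A match describes the letters only, and binding was not measured.

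In Tgtp2, Igtp and Irgm2 the TTCNNNGAA match ended exactly 2 bases before the paired GAAA match on the same strand. In the whole table this arrangement occurred in 5 genes, the others being Tgtp1, the near copy of Tgtp2, and Gm12185, all on chromosome 11. Tgtp2 and Igtp also fell with injury in CKO kidneys (values below), so these windows are shown. Irgm2 was not called there, and Iigp1, which also fell, had no promoter window to search. The windows of Igtp and Irgm2 share an identical run of 61 bases, so their matches may not be independent. Rsad2 is shown because it fell with injury in WT kidneys, while Isg15, with 3 overlapping matches, and the neighbours Ifit3 and Ifit3b rose there. The windows of Ifit3 and Ifit3b share an identical run of 169 bases that holds both matches in each. Each sequence gives the 200 bases directly before the RefSeq start, 5′ to 3′ on the gene's strand, with motif matches in capitals (a match on the opposite strand of the paired GAAA motif reads TTTC, 2 bases and TTTC).
Ifit3 promoter (chr19:34583329-34583528, plus strand): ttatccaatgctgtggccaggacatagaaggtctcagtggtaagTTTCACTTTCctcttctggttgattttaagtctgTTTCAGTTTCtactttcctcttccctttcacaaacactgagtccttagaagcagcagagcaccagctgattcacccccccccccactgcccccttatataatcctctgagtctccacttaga
Ifit3b promoter (chr19:34607757-34607956, plus strand): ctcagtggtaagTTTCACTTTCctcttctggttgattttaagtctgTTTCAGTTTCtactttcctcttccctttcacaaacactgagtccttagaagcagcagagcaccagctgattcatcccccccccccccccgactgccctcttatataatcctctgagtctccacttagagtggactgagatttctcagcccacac
Isg15 promoter (chr4:156200819-156201018, minus strand): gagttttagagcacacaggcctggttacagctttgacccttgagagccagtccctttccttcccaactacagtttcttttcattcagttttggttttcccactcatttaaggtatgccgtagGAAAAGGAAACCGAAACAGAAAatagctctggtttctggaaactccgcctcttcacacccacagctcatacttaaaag
Rsad2 promoter (chr12:26456453-26456652, minus strand): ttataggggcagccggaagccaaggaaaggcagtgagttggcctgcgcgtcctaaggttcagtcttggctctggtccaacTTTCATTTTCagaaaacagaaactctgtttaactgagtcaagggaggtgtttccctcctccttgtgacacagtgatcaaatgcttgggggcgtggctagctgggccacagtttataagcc
Tgtp2 promoter (chr11:49064213-49064412, minus strand): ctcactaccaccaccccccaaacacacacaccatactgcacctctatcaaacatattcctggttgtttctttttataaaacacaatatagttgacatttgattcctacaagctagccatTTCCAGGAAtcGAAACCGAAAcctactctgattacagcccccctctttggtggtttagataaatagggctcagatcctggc
Igtp promoter (chr11:58199356-58199555, plus strand): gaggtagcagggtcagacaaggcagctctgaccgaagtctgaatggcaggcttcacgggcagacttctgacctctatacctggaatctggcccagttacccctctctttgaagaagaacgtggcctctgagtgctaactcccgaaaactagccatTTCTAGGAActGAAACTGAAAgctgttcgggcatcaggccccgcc
Irgm2 promoter (chr11:58214777-58214976, plus strand): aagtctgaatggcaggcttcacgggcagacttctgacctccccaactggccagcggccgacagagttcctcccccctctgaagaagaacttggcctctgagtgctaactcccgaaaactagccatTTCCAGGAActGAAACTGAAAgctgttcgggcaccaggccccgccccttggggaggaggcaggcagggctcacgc

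In WT kidneys, most roles of the interferon response genes included genes that rose with injury. The exceptions were the inducible GTPases and the RNA sensors, of which only 3 were tested, too few to read 0 calls as a result. The largest rises were those of the IFIT genes Ifit3b (1.55) and Ifit3 (1.44) and of Bst2 (1.22). Of the 38 members tested, 14 were called higher in WT IRI than in WT sham and 2 lower (limma, adjusted p under 0.05). That is 36.8% and 5.26% of the members, where 21.6% and 9.99% of all genes tested were called higher and lower. Their median change was 0.32 on the log2(FPKM + 1) scale, against 0.12 for all genes. In 18 members (47.4%) all 3 WT IRI libraries lay above all 3 WT sham libraries, which held for 35.2% of all genes, and in 3 members (7.89%) all lay below, against 19.5% of all genes. With quantile normalization the median of all genes moved to -0.02 and that of the members to 0.14, and the split of all genes called went from 2693 higher and 1246 lower to 1864 and 1826. The higher count was 7 without WT sham 1 and 9 without WT sham 2. The lower count was 1 without either of them and 4 without WT IRI 49. Calls over all genes were not counted with a library left out, so these counts have no share to compare with.

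**Figure D1:**
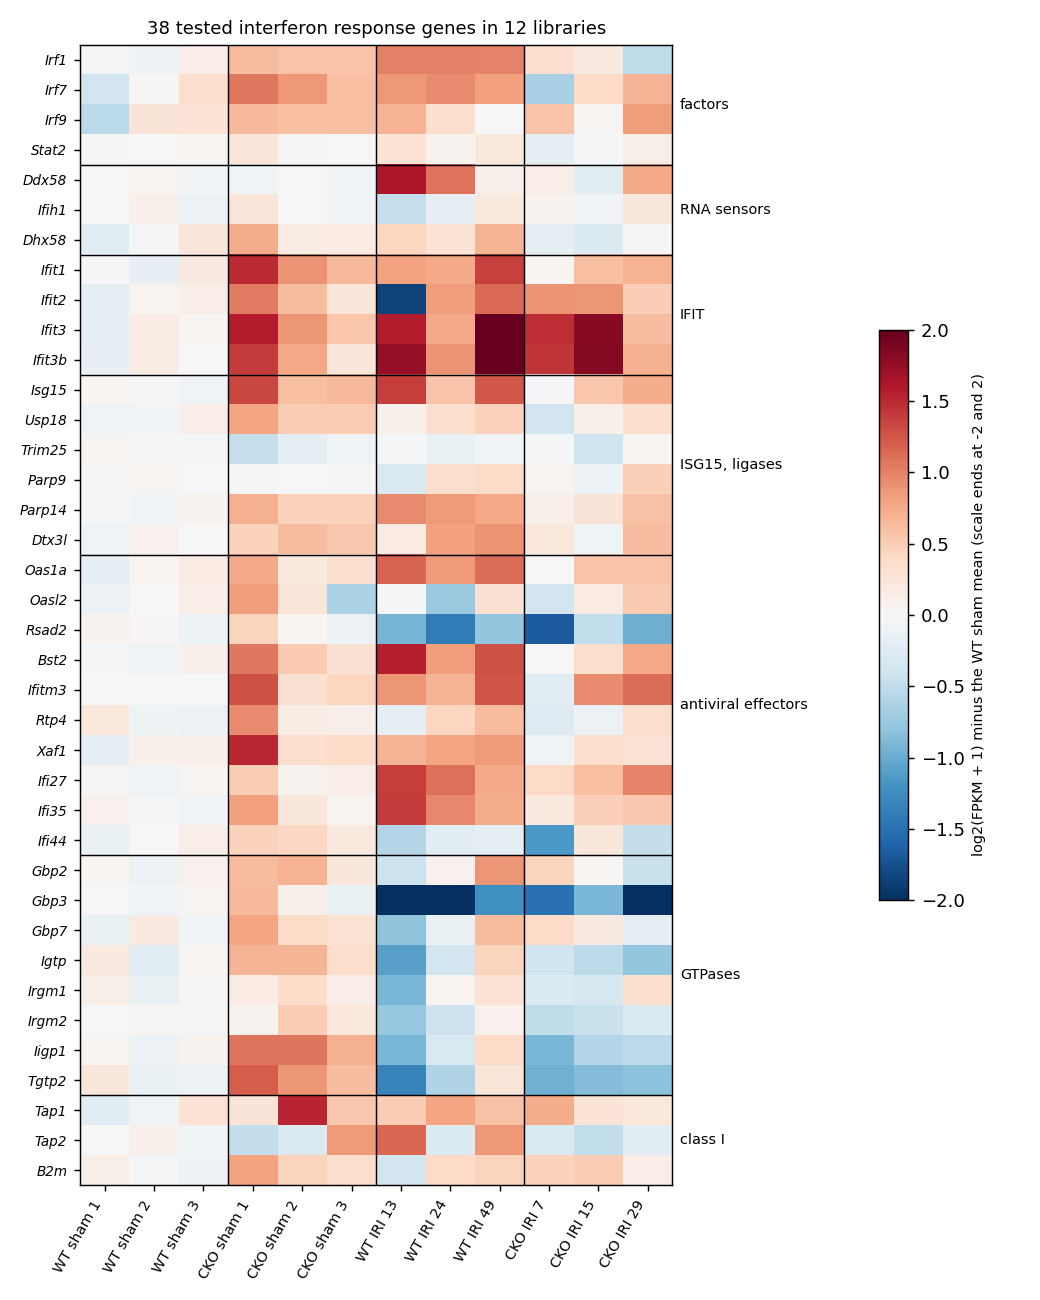
Level of the 38 tested members (rows, by role) in each of the 12 libraries (columns), as log2(FPKM + 1) minus the mean of the 3 WT sham libraries, with red above and blue below that mean. CKO sham libraries are mostly red, WT IRI libraries are red for most rows outside the GTPases, and Gbp3 and Rsad2 are blue in all 6 injured libraries.

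In CKO kidneys no member was called higher with injury, and 3 of 38 (7.89%) were called lower, all of them GTPases: Igtp, Iigp1 and Tgtp2. Among all genes 2.99% were called higher and 0.826% lower. At an unadjusted limma p under 0.05 the members counted 0 higher, where 15.1% of all genes were higher at that level. In all, 9 members were lower at that level, the 3 called ones among them. The share of all genes lower was not counted, so the 9 cannot be compared. The members' median change was -0.33, against 0.08 for all genes. No member had all CKO IRI libraries above all CKO sham libraries, a pattern seen in 21.4% of all genes, and 10 members (26.3%) had all of them below, against 10.1% of all genes. With library weights in limma, 10 members were called lower (8.6% of all genes), adding Rsad2, Irf7, Ifi44, Gbp3, Usp18, Irgm1 and Irgm2. Without CKO IRI 15 the lower count was 6, with no share of all genes counted for that fit. With quantile normalization the calls over all genes went from 373 higher and 103 lower to 275 and 139.

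**Figure D2:**
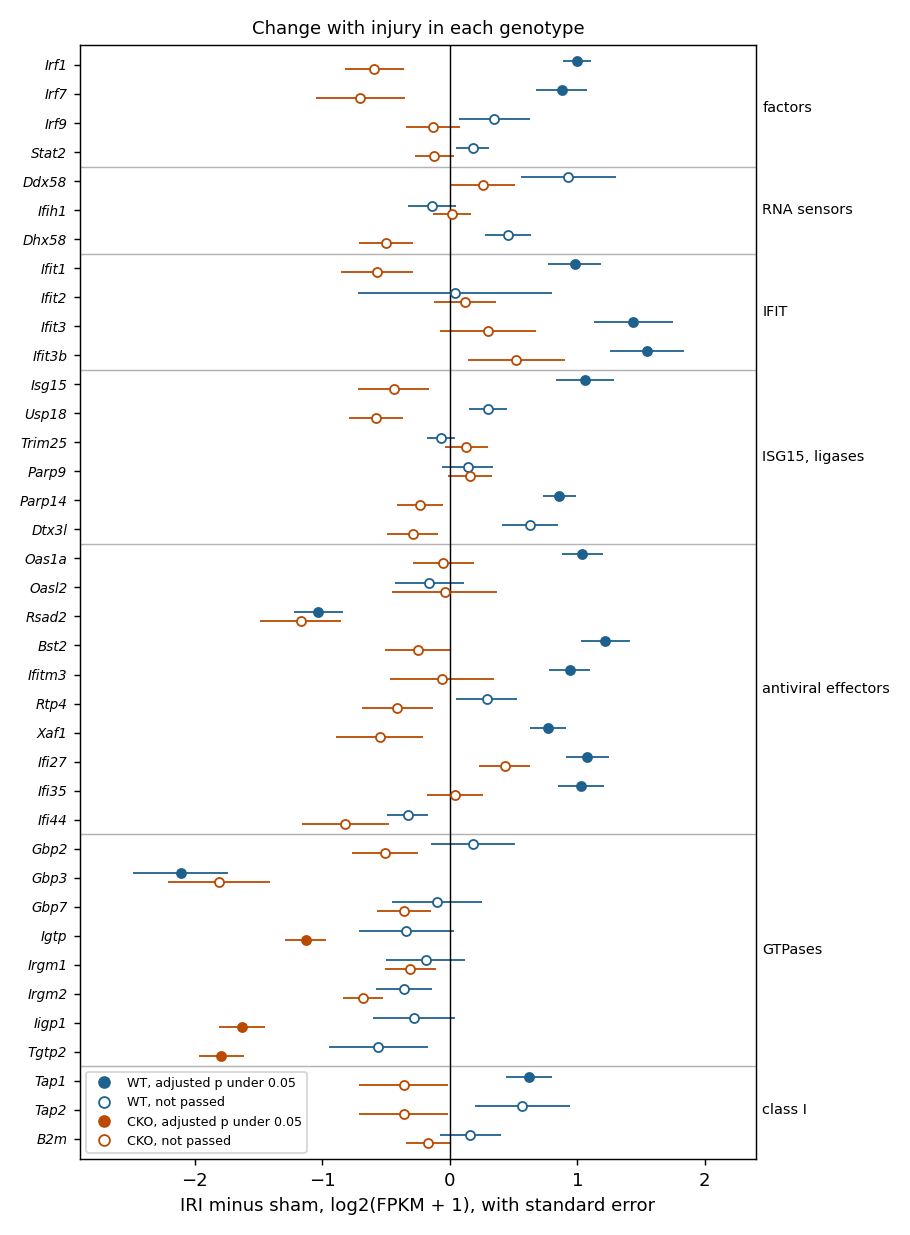
Change with injury in WT (blue) and CKO (orange) kidneys for each of the 38 tested members, as the limma difference in log2(FPKM + 1) with its standard error, and filled points where the adjusted p was under 0.05. The 14 WT rises lie outside the GTPase rows, and the 3 CKO falls lie within them.

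Before injury, members were mostly higher in CKO sham than in WT sham kidneys, although none passed the test. In 25 of 38 members (65.8%) all 3 CKO sham libraries lay above all 3 WT sham libraries, a pattern found in 15% of all genes tested, and in Trim25 alone (2.63% of members, 13.4% of all genes) they lay below. The median difference was 0.53, against 0.01 for all genes, and 35 of the 38 differences were above 0. No member was called higher or lower (0.0561% and 0.0321% of all genes were). At an unadjusted limma p under 0.05, 20 members were higher and 0 lower, where 9.46% of all genes were higher. The smallest adjusted p was 0.144, for Iigp1. The difference was not even over the libraries: the mean of the members above WT sham was 0.69 in CKO sham 1, 0.43 in CKO sham 2 and 0.29 in CKO sham 3. CKO sham 1 held the highest value of all 12 libraries for 17 of the 38 members. Without it the median difference was 0.36.

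Markers of other cells were read in the same sham libraries. In bulk cortex, more cells of a type and more RNA per cell cannot be told apart. The 15 macrophage and monocyte markers summed to 117 to 129 FPKM in WT sham and to 214, 158 and 144 FPKM in CKO sham 1, 2 and 3. The markers did not all move alike. Lyz2 was 18.08, 22.32 and 25.67 FPKM in WT sham and 45.4, 36.96 and 36.98 FPKM in CKO sham. Adgre1 was lower in CKO sham, at 1.22, 0.92 and 1.0 FPKM against 1.48, 1.46 and 1.35 FPKM in WT sham. The 5 genes of MHC class II presentation summed to 505 to 549 FPKM in WT sham and to 796, 601 and 532 FPKM in CKO sham 1, 2 and 3, and the 11 endothelial markers to 247 to 265 and 379, 271 and 276 FPKM. Of 10 T and NK cell markers 5 were analysed, with sums of 2.43 to 3.61 FPKM in WT sham and 3.48 to 6.74 FPKM in CKO sham. Among the 6 sham libraries CKO sham 1 was highest in each of these lists, as it was for the mean of the members, and no marker in them was called between the sham groups. It also stood apart in red blood cell genes, with 725 FPKM against 464 and 161 FPKM in CKO sham 2 and 3 and 106 to 352 FPKM in WT sham. Its proximal tubule markers were lowest, at 3460 FPKM against 4450 and 4910 FPKM in CKO sham 2 and 3. The part of these cells, or of blood, in the sham difference was not tested.

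**Figure D3:**
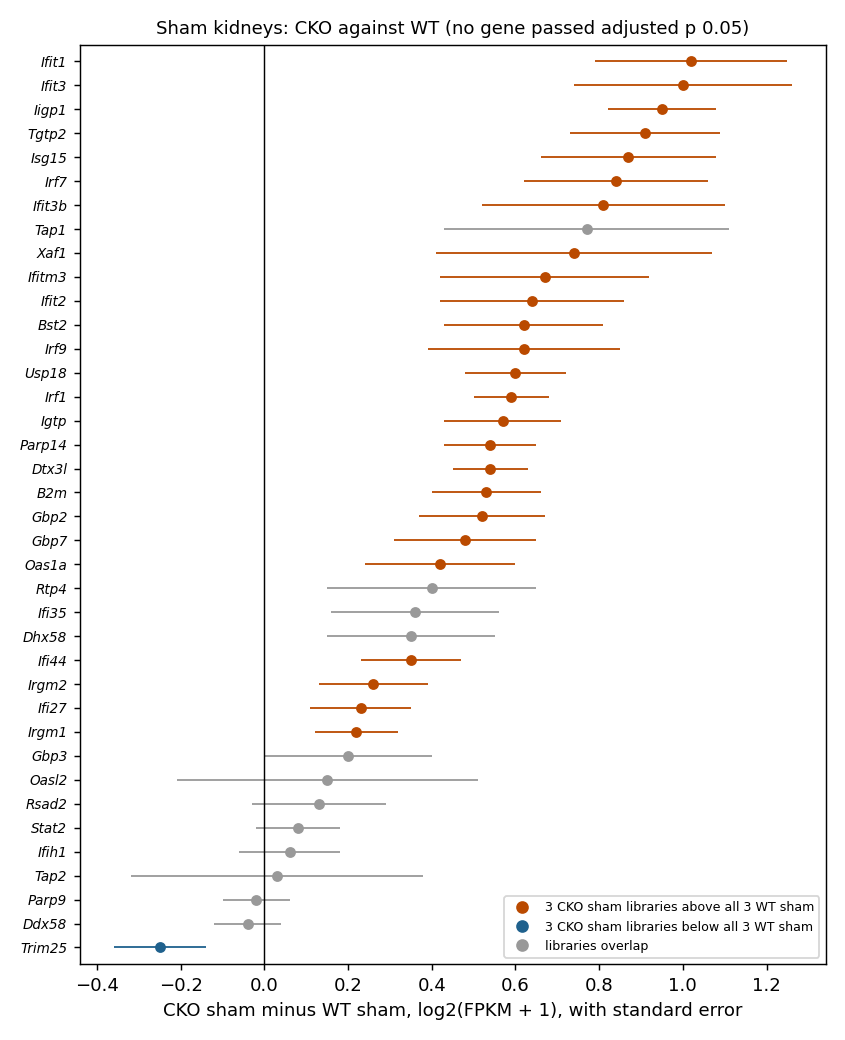
Difference between CKO sham and WT sham for each tested member, in log2(FPKM + 1) with its standard error, ordered by size. Orange points mark the 25 members whose 3 CKO sham libraries all lay above the 3 WT sham libraries, blue marks Trim25, the reverse case, and grey marks overlap.

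After injury 29 of the 38 members had a CKO mean below the WT mean, again without a call. No member had all CKO IRI libraries above all WT IRI libraries (7.11% of all genes), while 9 members (23.7%) had all of them below, against 11.5% of all genes. These were Irf1, Irf7, Dhx58, Ifit1, Parp14, Oas1a, Bst2, Xaf1 and Ifi35. Their median difference over all 38 members was -0.25, against -0.05 for all genes. The limma test called no member and no gene in either direction (0% of all genes). At an unadjusted p under 0.05 the members counted 0 higher and 8 lower, where 6.48% of all genes were lower, and the smallest adjusted p was 0.476.

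The difference between the 2 genotypes in their change with injury was tested directly as an interaction over all 12 libraries. No member passed, where 0.00802% of all genes were called in each direction. Of the 38 interaction terms 32 were below 0, with a median of -0.84 against -0.06 for all genes, and the smallest adjusted p was 0.148 (Irf1). At an unadjusted p under 0.05, 16 members were lower and 0 higher, where 10.7% of all genes were lower. With library weights 14 members were called lower (3.96% of all genes): Irf1, Irf7, Ifit1, Isg15, Usp18, Parp14, Dtx3l, Oas1a, Bst2, Xaf1, Ifi27, Ifi35, Iigp1 and Tgtp2. Without weights the count called lower went from 0 to 2 without WT IRI 49 and to 1 without CKO IRI 29. Calls over all genes were not counted in those fits. The interaction takes in the sham levels, so a higher CKO sham level alone lowers it. The 4 comparisons share groups, and their counts are therefore not independent of each other.

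**Figure D4:**
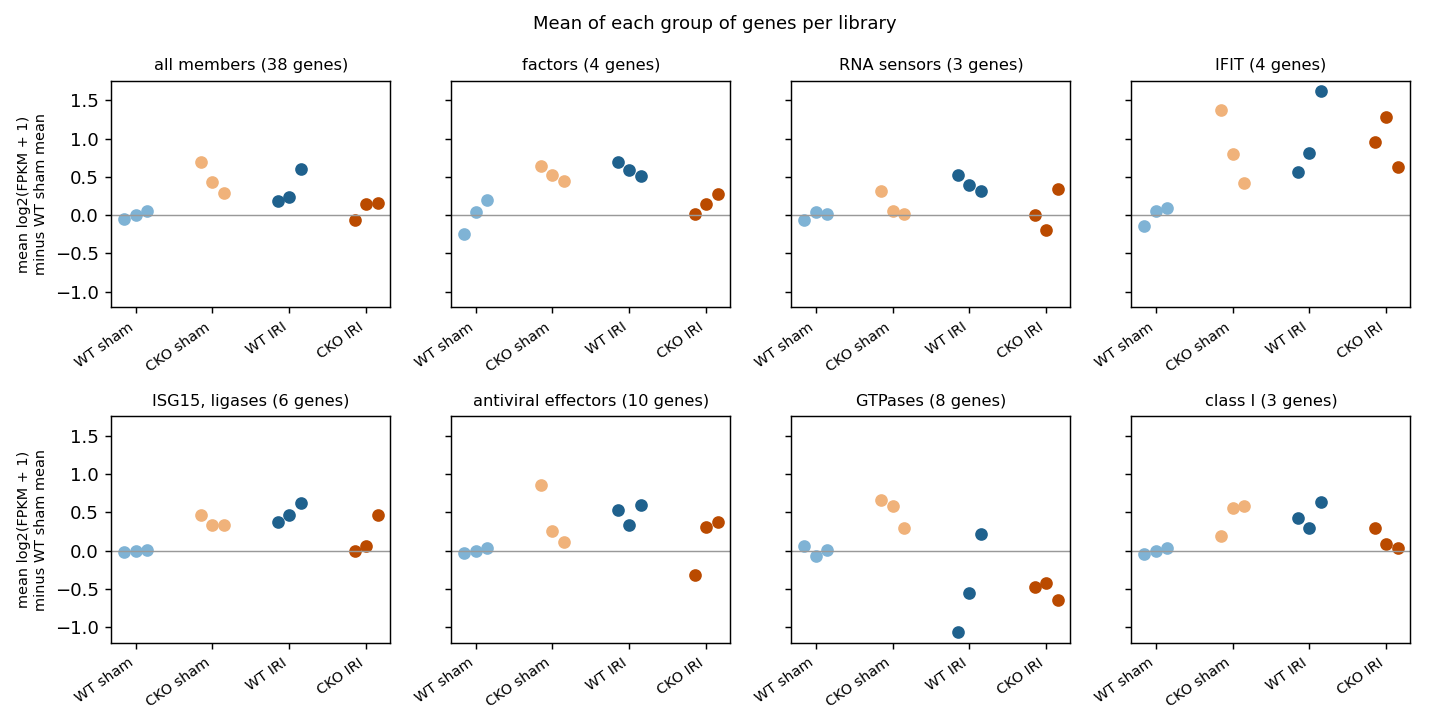
Mean over the tested members of each role group in each library, as log2(FPKM + 1) minus the WT sham mean, with 1 point per library. IFIT genes lie above 0 in all 9 libraries outside WT sham, and GTPases lie between 0.30 and 0.66 in CKO sham and between -0.65 and -0.43 in CKO IRI.

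Among the signalling and transcription factors, Irf1, an interferon regulatory factor induced by interferon gamma, had the smallest p of all members in the WT comparison (chromosome 11, 53770014 to 53778374, plus strand). Its level was 7.88, 7.5 and 8.98 FPKM in the WT sham libraries 1, 2 and 3 and 13.2, 12.5 and 12.5 FPKM in CKO sham. It reached 17.2, 17.3 and 17.2 FPKM in WT IRI 13, 24 and 49 and stood at 10.5, 9.31 and 5.38 FPKM in CKO IRI 7, 15 and 29. WT sham, CKO sham and WT IRI did not overlap and stood in rising order, and all CKO IRI libraries lay below all CKO sham libraries. Irf1 rose with injury in WT (1.00, SE 0.11, adjusted p = 0.003). Its CKO change was -0.59 (SE 0.23, adjusted p = 0.195), its sham difference 0.59 (SE 0.09, adjusted p = 0.171) and its difference after injury -1.0 (SE 0.24, adjusted p = 0.476). The share of its individual transcripts shifted between libraries of 1 group: the transcript that held 16.0 and 16.9 FPKM in WT IRI 13 and 24 held 1.24 FPKM in WT IRI 49, so only the sum over transcripts was read.

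Irf7, the factor that amplifies type I interferon production, measured 1.54, 2.34 and 3.23 FPKM in the WT sham libraries 1, 2 and 3 and 5.82, 5.02 and 4.02 FPKM in CKO sham. In WT IRI it stood at 4.99, 5.35 and 4.86 FPKM and in CKO IRI at 1.10, 3.36 and 4.28 FPKM. CKO sham and WT IRI libraries all lay above WT sham, and CKO IRI overlapped both sham groups. It rose in WT (0.88, SE 0.20, adjusted p = 0.0223), a call lost without WT sham 1, WT sham 2 or WT IRI 24 and with library weights. Irf9, the DNA-binding part of the ISRE complex, measured 4.30 to 8.26 FPKM in WT sham and 10.7 to 11 FPKM in CKO sham, with injured libraries at 6.73 to 12.7 FPKM. Stat2, its partner, stayed between 2.27 and 3.53 FPKM in all 12 libraries. Neither was called in any comparison.

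The 3 RNA sensors gave no call, where 21.6% of all genes tested were called higher in WT. With 3 genes, 0 calls cannot be told apart from that share. Ddx58, which encodes RIG-I, measured 2.4 to 2.66 FPKM in WT sham and 2.38 to 2.53 FPKM in CKO sham. It stood at 9.91, 6.5 and 2.79 FPKM in WT IRI 13, 24 and 49, all above sham but widely spread (0.93, SE 0.37, adjusted p = 0.0976). In CKO IRI it was 2.88, 2.01 and 4.97 FPKM. Dhx58, the gene of LGP2, had all WT IRI libraries above WT sham (1.80, 1.52 and 2.32 against 0.797, 1.03 and 1.45 FPKM) and all CKO IRI libraries below CKO sham (0.820, 0.707 and 1.12 against 2.46, 1.31 and 1.33 FPKM). Its limma adjusted p was 0.0958 in WT and 0.222 in CKO. Ifih1, which encodes MDA5, ranged from 2.02 to 3.91 FPKM with overlap in every comparison.

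In the IFIT family, whose proteins bind viral RNA and block its translation, 3 of 4 genes rose in WT and 0 of 4 were called in CKO. Over all genes tested, 21.6% were called higher in WT, but only 2.99% higher and 0.826% lower in CKO. Ifit3 measured 10.5, 13.5 and 12.5 FPKM in the WT sham libraries 1, 2 and 3 and 38.1, 23.1 and 18.2 FPKM in CKO sham. It was 37.9, 21.1 and 51.4 FPKM in WT IRI and 35.5, 45.3 and 19.0 FPKM in CKO IRI. All 9 libraries of the other groups lay above the 3 WT sham libraries, and the 3 groups overlapped one another. Its rise in WT was 1.44 (SE 0.31, adjusted p = 0.0183) and its sham difference 1.00 (SE 0.26, adjusted p = 0.25), while its CKO change was 0.30 (SE 0.38, adjusted p = 0.664). The WT call was lost without any 1 of the WT sham libraries or without WT IRI 13. Ifit3b, its neighbour, had the same order of groups at a lower level, with 3.50 to 4.59 FPKM in WT sham and 8.40 to 18.9 FPKM in WT IRI, and rose in WT by 1.55 (SE 0.29, adjusted p = 0.0114 and 0.0518 without WT sham 1). Of the 100-base windows of the Ifit3 transcript 31.7% also occur in that of Ifit3b, so reads may be divided between them and the values of each are uncertain.

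Ifit1 measured 1.77 to 2.52 FPKM in WT sham, 7.67, 4.80 and 3.86 FPKM in CKO sham, 4.42, 4.23 and 6.98 FPKM in WT IRI and 2.17, 3.69 and 4.00 FPKM in CKO IRI. It rose in WT (0.98, SE 0.21, adjusted p = 0.017), a call lost without WT sham 1 or WT sham 2. It also had the largest sham difference of the members, 1.02 (SE 0.23, adjusted p = 0.232), with no overlap. Ifit2 was listed at 0 in WT IRI 13 and at 5.40 and 6.89 FPKM in WT IRI 24 and 49, against 2.16 to 2.96 FPKM in WT sham. That one value left its WT change at 0.04 with an SE of 0.76.

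**Figure D5:**
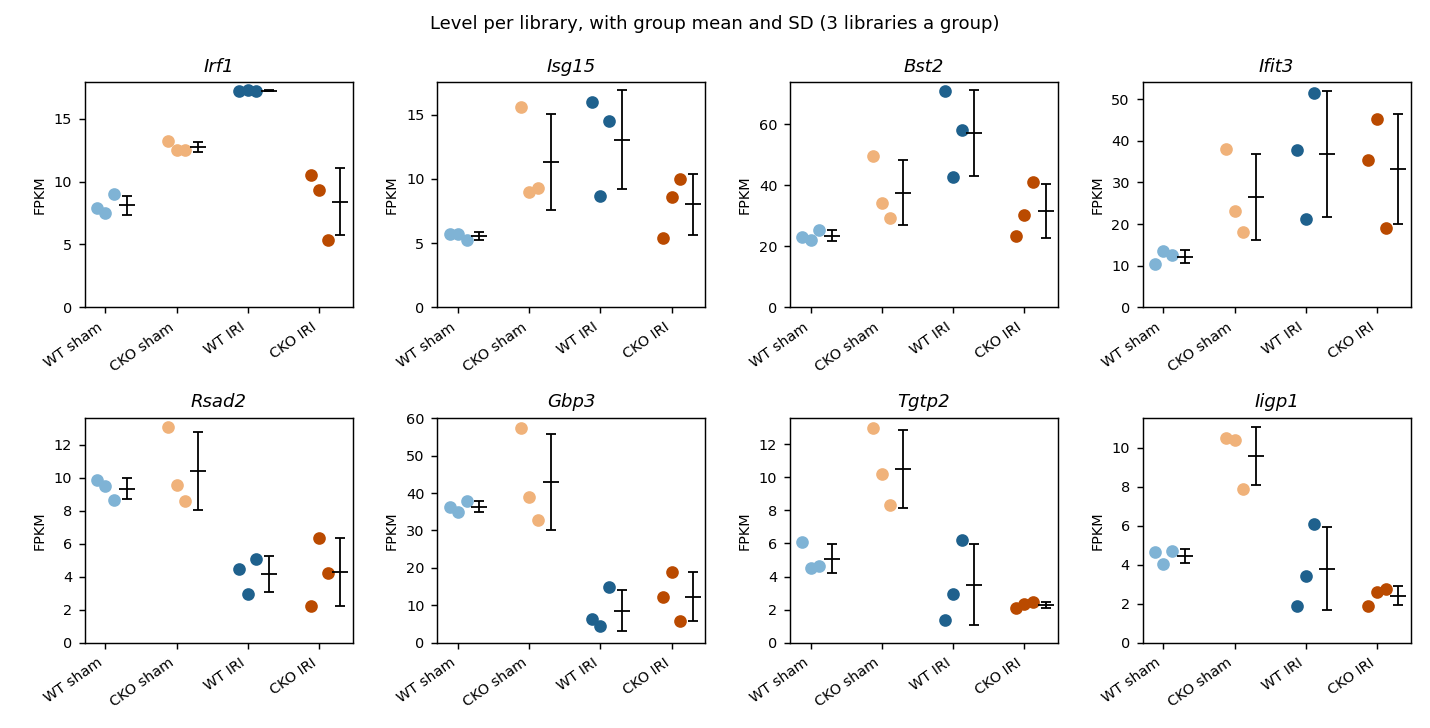
FPKM of 8 members in each library (points) with the group mean and SD (n = 3). Irf1, Isg15, Bst2 and Ifit3 are higher in WT IRI than in WT sham, Rsad2 and Gbp3 lie below all sham libraries in both injured groups, and Tgtp2 and Iigp1 are highest in CKO sham.

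The ISG15 system attaches the ubiquitin-like protein ISG15 to targets, and USP18 removes it and dampens receptor signalling. Isg15 measured 5.74, 5.68 and 5.23 FPKM in the WT sham libraries 1, 2 and 3 and 15.6, 8.97 and 9.30 FPKM in CKO sham. It stood at 16.0, 8.67 and 14.5 FPKM in WT IRI and at 5.42, 8.61 and 9.99 FPKM in CKO IRI. CKO sham and WT IRI libraries all lay above WT sham, and CKO IRI reached down to the WT sham level in CKO IRI 7. The rise in WT was 1.06 (SE 0.23, adjusted p = 0.0174), lost without any 1 of the WT sham libraries, and the change in CKO was -0.44 (SE 0.28, adjusted p = 0.39). Usp18 measured 1.78 to 2.20 FPKM in WT sham and 3.15 to 4.04 FPKM in CKO sham, and its CKO IRI libraries (1.25, 2.15 and 2.66 FPKM) all lay below CKO sham, at a limma adjusted p of 0.177.

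Parp14, an ADP-ribosyltransferase, rose in WT from 1.70 to 1.93 FPKM in sham to 4.38, 4.01 and 3.77 FPKM in WT IRI (0.86, SE 0.13, adjusted p = 0.00617). It was 2.84 to 3.55 FPKM in CKO sham and 1.99, 2.33 and 3.20 FPKM in CKO IRI. Dtx3l, a ubiquitin ligase that works with PARP9, was 1.19 to 1.42 FPKM in WT sham, 2.16 to 2.5 FPKM in CKO sham and 1.57 to 3.25 FPKM in WT IRI, without a call. Parp9 itself lay at 5.71 to 6.09 FPKM in all 6 sham libraries and at 4.64 to 8.58 FPKM after injury. The ends of Parp9 and Dtx3l overlap on opposite strands, and the strand setting of the counting is not given, so their shared bases cannot be assigned with certainty. Trim25, the ligase that activates RIG-I, was the 1 member with all CKO sham libraries (10, 12.3 and 13.3 FPKM) below WT sham (13.8 to 14.9 FPKM).

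Antiviral effectors held 6 of the 14 WT rises, with Rsad2 called lower, and none of the 10 was called in CKO. The shares of all genes called were 21.6% higher and 9.99% lower in WT, and 2.99% higher and 0.826% lower in CKO. Bst2, the gene of tetherin, which holds budding virus at the cell surface, measured 23.1, 22.1 and 25.4 FPKM in the WT sham libraries 1, 2 and 3 and 49.6, 34.1 and 29.3 FPKM in CKO sham. It stood at 70.9, 42.7 and 58.1 FPKM in WT IRI and at 23.5, 30.3 and 41 FPKM in CKO IRI. All WT IRI libraries lay above WT sham and above CKO IRI, and CKO IRI overlapped both sham groups. The rise in WT was 1.22 (SE 0.19, adjusted p = 0.00741), the CKO change -0.25 (SE 0.26, adjusted p = 0.608) and the interaction -1.47 (SE 0.35, adjusted p = 0.188).

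Ifitm3, which blocks virus entry at endosomes, measured 45.3 to 45.9 FPKM in WT sham, 111, 56.9 and 61.7 FPKM in CKO sham, 84.8, 73.4 and 111 FPKM in WT IRI and 39.1, 89.0 and 99.8 FPKM in CKO IRI. It rose in WT (0.94, SE 0.16, adjusted p = 0.00962 and 0.0516 with a spread shared by all groups). Oas1a, which makes the oligoadenylates that activate RNase L, rose from 1.72, 2.22 and 2.5 FPKM to 5.99, 4.66 and 5.81 FPKM in WT (1.04, SE 0.16, adjusted p = 0.00673), and was 2.59 to 4.32 FPKM in CKO sham and 2.1 to 3.66 FPKM in CKO IRI. Ifi27 rose in WT from 39.4 to 42.4 FPKM in sham to 109, 89.9 and 70.6 FPKM (1.08, SE 0.17, adjusted p = 0.0072). Its CKO IRI libraries held 54.6, 63.4 and 82.6 FPKM against 58.7, 43.4 and 45.1 FPKM in CKO sham (0.43, SE 0.20, adjusted p = 0.252). Ifi35 and Xaf1 also rose in WT, by 1.03 (SE 0.18, adjusted p = 0.0103) and 0.77 (SE 0.14, adjusted p = 0.0114 and 0.0531 without WT sham 1). Xaf1 had all CKO IRI libraries (2.26, 3.32 and 3.2 FPKM) below CKO sham (8.77, 3.33 and 3.43 FPKM), but only just, at 3.32 against 3.33 FPKM. Its CKO change was -0.55 (SE 0.34, limma adjusted p = 0.372).

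Rsad2, the gene of viperin, went the other way. Its level was 9.87, 9.53 and 8.63 FPKM in WT sham and 13.1, 9.57 and 8.57 FPKM in CKO sham. With injury it stood at 4.45, 2.93 and 5.06 FPKM in WT IRI and 2.24, 6.35 and 4.23 FPKM in CKO IRI. Injured libraries lay below all sham libraries in both genotypes, with a fall of 1.03 in WT on the log2 scale (-1.03, SE 0.19, adjusted p = 0.0109) and a CKO change of -1.17 (SE 0.32, adjusted p = 0.099). The WT call was lost without WT sham 1 or WT sham 2. Cmpk2, a nucleotide kinase and no member, also fell in WT (-0.83, SE 0.20, adjusted p = 0.0242). Ifi44 had all WT IRI libraries (2.49 to 3.64 FPKM) below WT sham (3.81 to 4.74 FPKM) without passing the test, and Oasl2 and Rtp4 overlapped in both injury comparisons. Oas2, under the filter, was at 0.135 to 0.276 FPKM in WT sham and 0.616 to 0.960 FPKM in WT IRI.

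The interferon-inducible GTPases, some of which coat and disrupt the vacuoles of intracellular microbes, held all 3 of the falls in CKO and none of the 14 rises in WT. In WT Gbp3 was the 1 of 8 called, and it fell, with a median change of -0.31 over the 8. In CKO 3 of 8 fell, with a median of -0.91. Of all genes tested, 21.6% were called higher and 9.99% lower in WT, and 0.826% lower in CKO. In sham, 7 of the 8 had all CKO libraries above all WT libraries, a pattern found in 15% of all genes tested. The median sham difference of the 8 was 0.50, without a call. Tgtp2 (chromosome 11, 49057194 to 49064206, minus strand), 1 of the promoters shown above, measured 6.11, 4.49 and 4.66 FPKM in the WT sham libraries 1, 2 and 3 and 13, 10.2 and 8.30 FPKM in CKO sham. It was 1.40, 2.97 and 6.18 FPKM in WT IRI and 2.09, 2.32 and 2.44 FPKM in CKO IRI. CKO sham was above every other library, and CKO IRI lay inside the wide WT IRI range. It fell in CKO (-1.79, SE 0.18, adjusted p = 0.00596), while its WT change was -0.56 (SE 0.39, adjusted p = 0.295) and the interaction -1.23 (SE 0.46, adjusted p = 0.223). Of the 100-base windows of the Tgtp2 transcript 80.4% also occur in Tgtp1, so the values of both are uncertain. Tgtp1, no member, fell in CKO as well (-1.84, SE 0.17, adjusted p = 0.00468).

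Iigp1, the gene of the immunity-related GTPase IRGA6, measured 4.64, 4.03 and 4.69 FPKM in the WT sham libraries 1, 2 and 3 and 10.5, 10.4 and 7.88 FPKM in CKO sham. It stood at 1.89, 3.40 and 6.09 FPKM in WT IRI and 1.88, 2.61 and 2.77 FPKM in CKO IRI. Its pattern was that of Tgtp2, with CKO sham above every other library. It fell in CKO (-1.63, SE 0.18, adjusted p = 0.00741) and had the smallest p of the members in sham (0.95, SE 0.13, adjusted p = 0.144). Igtp, which encodes IRGM3, measured 9.62 to 12.8 FPKM in WT sham, 14.6 to 18.6 FPKM in CKO sham, 4.77 to 15.6 FPKM in WT IRI and 6.13 to 8.31 FPKM in CKO IRI. It fell in CKO (-1.13, SE 0.16, adjusted p = 0.0193), a call lost without any 1 of the CKO sham libraries or without CKO IRI 7. Irgm2, whose gene overlaps Igtp on the same strand, was at 7.38 to 10.3 FPKM in CKO sham and 4.58 to 5.5 FPKM in CKO IRI, with an adjusted p of 0.0713, and how reads were divided between the overlapping genes is unknown.

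Gbp3, a guanylate-binding protein, had the largest change with injury among the members. Its level was 36.2, 35 and 37.8 FPKM in WT sham, 57.4, 38.9 and 32.8 FPKM in CKO sham, 6.41, 4.47 and 14.9 FPKM in WT IRI and 12.3, 18.8 and 5.90 FPKM in CKO IRI. All injured libraries lay below all sham libraries. It fell in WT (-2.11, SE 0.37, adjusted p = 0.01), and its CKO change was -1.81 (SE 0.40, adjusted p = 0.0632). Single transcripts of Gbp3 varied within groups. The one highest in WT sham 1 and 3 held 23.4, 12.7 and 27.1 FPKM in WT sham and 0.02, 0 and 13.4 FPKM in WT IRI. Another overlapped, with 6.61, 14.45 and 3.89 FPKM against 6.39, 4.47 and 0.78 FPKM, so only the sum was read. Gbp2 and Gbp7, of the same family and the same stretch of chromosome 3, overlapped in both injury comparisons, at 4.23 to 12.2 FPKM and 1.31 to 5.92 FPKM over the 12 libraries. Irgm1, a regulator of the other GTPases, lay at 29.4 to 34.9 FPKM in WT sham and 35.5 to 41.9 FPKM in CKO sham.

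WT IRI libraries differed from one another in this role. The mean of the 8 GTPases relative to WT sham was -1.07 in WT IRI 13, -0.56 in WT IRI 24 and 0.22 in WT IRI 49, against -0.47, -0.43 and -0.65 in CKO IRI 7, 15 and 29. T and NK cell markers summed to 0.368, 0.899 and 3.56 FPKM in the same WT IRI libraries and to 1.68, 0.853 and 0.171 FPKM in CKO IRI. MHC class II genes summed to 277, 218 and 464 FPKM in WT IRI and 306, 315 and 113 FPKM in CKO IRI, and endothelial markers to 198, 102 and 198 FPKM and 89.4, 222 and 166 FPKM. Macrophage and monocyte markers, 4 of 15 of which were called higher in WT (21.6% of all genes), summed to 291, 137 and 334 FPKM in WT IRI and 223, 248 and 161 FPKM in CKO IRI. The tubular injury genes Havcr1, Lcn2 and Krt20 together reached 889, 916 and 456 FPKM in WT IRI and 460, 213 and 915 FPKM in CKO IRI, from 6.47 to 16.9 FPKM in sham. Red blood cell genes summed to 40.5, 28.3 and 548 FPKM in WT IRI 13, 24 and 49 and to 24.8, 101 and 200 FPKM in CKO IRI 7, 15 and 29. WT IRI 49, highest for the GTPases, was also highest for red blood cell, T and NK cell and MHC class II markers and lowest for tubular injury genes in its group. What these differences contribute was not tested.

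In class I antigen presentation, Tap1, a subunit of the peptide transporter, rose in WT (0.62, SE 0.18, adjusted p = 0.0416). Its level was 0.777 to 1.52 FPKM in WT sham and 1.93 to 2.57 FPKM in WT IRI, and this call was lost under 10 of 13 alternatives. Tap2, the other subunit, ranged from 2.84 to 11.1 FPKM without a call. B2m, the light chain of class I molecules, was at 324, 291 and 278 FPKM in WT sham and at 519, 405 and 379 FPKM in CKO sham, with no overlap (0.53, SE 0.13, adjusted p = 0.246). In WT IRI it was 230, 392 and 405 FPKM and in CKO IRI 411, 421 and 325 FPKM.

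Other genes of the pathway were read from lists. These lists were chosen with earlier results of these data known, so their counts are not independent support. Of 14 receptors, kinases and regulators, 8 rose with injury in WT (Ifnar1, Ifnar2, Ifngr1, Ifngr2, Tyk2, Irf3, Socs1 and Socs3) and none fell, while in CKO Il10rb, a shared receptor chain, fell and none rose. Over all genes tested, 21.6% were called higher in WT and 0.826% lower in CKO. Socs1 passed the level filter only through WT IRI (1.84, 1.45 and 1.36 FPKM), the group where it is high, so its call adds no support. Socs3, a feedback inhibitor of cytokine receptors, measured 0.874 to 1.78 FPKM in WT sham and 30.2, 23.4 and 16.9 FPKM in WT IRI (3.42, SE 0.25, adjusted p = 0.000492). In CKO it went from 1.45 to 2.30 FPKM in sham to 11.5, 4.08 and 12.8 FPKM (1.73, SE 0.39, adjusted p = 0.0654). Of 7 tested genes of nucleic acid sensing 1 was called higher in WT, a smaller share than the 21.6% of all genes: Tmem173, which encodes STING, rose (1.89, SE 0.19, adjusted p = 0.00171), from 1.15 to 1.88 FPKM to 8.75, 9.90 and 6.71 FPKM.

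Among 11 further class I genes, 7 rose in WT, where 21.6% of all genes were called higher. None was called in CKO, where 2.99% of all genes were called higher and 0.826% lower. The immunoproteasome subunit Psmb8 rose from 7.79 to 8.24 FPKM to 22.1, 16.7 and 19.6 FPKM (1.17, SE 0.13, adjusted p = 0.00303), and H2-K1, Tapbp and Psme1 also rose. In CKO, Psmb8 was 14.9, 12.6 and 8.37 FPKM in sham and 9.85, 11.3 and 12.2 FPKM after injury. Of 27 further interferon-induced genes tested, 9 rose and Cmpk2 fell in WT (21.6% and 9.99% of all genes), and Tgtp1 fell in CKO (0.826% of all genes). Oas1g, among those that rose, needed its WT IRI libraries (0.89, 1.02 and 1.74 FPKM) to pass the level filter, so its call adds no support. The chemokine Cxcl10 rose in WT from 3.67 to 5.38 FPKM to 12.4, 13.7 and 20.5 FPKM (1.54, SE 0.22, adjusted p = 0.00572). No gene of these lists was called between genotypes in sham, after injury or in the interaction. The 5 interferon ligand genes of the list were not analysed here.

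Position relative to the targeted gene was also read. Of the 9 members tested on chromosome 11, 5 lie within 10 Mb of Gpx3: Irf1 at -1.12 Mb, Igtp and Irgm2 at 3.29 Mb, Tgtp2 at -5.84 Mb and Irgm1 at -6.03 Mb, where a minus sign means a lower coordinate. All 5 had every CKO sham library above every WT sham library, with a median difference of 0.57. Of the other 33 members 20 did so (60.6%), with a median of 0.52. All 169 genes tested in that window had a median of 0.03, and 21.9% lay wholly above. The strain background around the altered locus is not stated in the sources read, and its part in the values of these 5 members was not tested.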

How the data were processed

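RNA of mouse renal cortex was sequenced in 12 libraries, from kits that mark the strand with dUTP, per the labels' protocols. The authors deposited 1 table of 25790 transcripts, read here as FPKM. Its header names no unit, and TPM would differ by 1 factor per library. The submitters' processing notes list cutadapt, StringTie and HISAT2 2.1.0, and they name GRCh38 although the identifiers are mouse. No transcript in the deposited FPKM table had a largest group mean under 0.5. Depth is unknown, so no counting error is given.

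Identifiers without version were matched to GENCODE M21 (GRCm38), and values were summed per gene. The 50 unmatched transcripts, at most 0.103% of any library, were left out. Genes reaching 1 FPKM in 3 or more of the 12 libraries entered the test on log2(FPKM + 1) with limma 3.58.1 (R 4.3.3, mean-variance trend, two-sided, Benjamini-Hochberg over all 12469 genes), using the 6 libraries of the groups compared and all 12 for the interaction. Fold changes on this scale understate changes of low genes. Only the compared groups were fitted because the median SD per gene (log2) differed (WT sham 0.10, CKO sham 0.17, CKO IRI 0.23, WT IRI 0.27). The model was also run on simulated data in which spreads were shuffled over genes. Real spreads belong to their genes, so that run does not measure the accuracy of the model here.

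All members are named, grouped by role. Full statistics are given for members called in a comparison and for the member of smallest p in a role. Members and lists were chosen with earlier results of these data known. Alternatives were pseudocounts of 0.1 and 0.5, no filter, a filter of 5 FPKM, quantile and trimmed-mean scaling, library (array) weights, a shared spread, a replicate block and leaving out each library. Promoters are those of a RefSeq table.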

Additional observations from a re-analysis of the deposited data

How the results depend on the processing

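No call or median of the members changed direction under any alternative run, while the median of all genes went from 0.12 to -0.02 in WT and from 0.08 to -0.02 in CKO with quantile normalization, and to -0.01 in WT with trimmed-mean scaling. Calls of genes outside the set were not rerun one by one. The count of members called higher with injury in WT was 14, and it was 9 with a filter of at least 5 FPKM (24 members tested) and 7 to 16 when each library was left out. The count called lower in WT was 2, and 1 to 4 with each library left out. The WT median of 0.32 was 0.14 with quantile normalization. In CKO the count called lower with injury was 3. It was 10 with array weights, 5 with a spread shared by all 4 groups and 2 to 6 with each library left out. With the shared spread, the calls lower in CKO over all genes went from 103 to 185. Calls over all genes were not counted with a library left out, so the member counts of those fits have no share to compare with. The sham median of 0.53 ranged from 0.36 to 0.58 with each library left out. The median after injury was -0.25 and -0.44 with array weights. The interaction called 0 members lower, 14 with array weights and 0 to 2 with each library left out. The cause of these shifts was not tested. Of the 16 members called in WT 7 kept their call under every alternative in which they were tested (Irf1, Parp14, Oas1a, Bst2, Ifi27, Ifi35 and Gbp3), and of the 3 called in CKO, Iigp1 and Tgtp2 did. With the replicate block in the sham groups 0 members were called higher and 0 lower and the median was 0.53, while calls over all genes went from 7 higher and 4 lower to 0 and 0. The sample titles do not state that the numbers pair the samples. Same-numbered sham libraries had correlations of deviations between -0.031 and 0.004, and 0 of 6 correlated best with its own number. With 3 libraries a group this shows no pairing but cannot exclude a weak one. Injured libraries share no numbers between groups. With no read depth, precision at low FPKM cannot be stated.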
